A study of Mus musculus with 9 samples.

Results

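The genes described here encode the heat shock proteins and J-proteins of the mouse, which act mainly in the cytosol. They were taken by symbol, as every protein-coding gene whose name begins with Hspa, Hspb, Hsp90, Hsph or Dnaj. Chaperones of the endoplasmic reticulum (Hspa5, Hsp90b1, Dnajb9, Dnajb11, Dnajc3 and Dnajc10) and of the mitochondrion (Hspa9 and Dnajc19) were left out. Of 64 such genes in the annotation, 63 had a row among the 47729 gene rows of each library, and Hspa14 was not analysed here. The 63 genes comprised 8 of the HSP70 group, 3 of the HSP110 group, 2 of HSP90, 7 small heat shock proteins, 4 Dnaja, 11 Dnajb and 25 Dnajc genes. The remaining 3, Hspbp1, Hspbap1 and Hspb11, carry an Hspb symbol but do not encode small heat shock proteins. A symbol does not mark a compartment, and some of the genes encode proteins of other places. Hspa13 is microsomal, Dnaja3, Dnajc11, Dnajc15 and Dnajc30 are mitochondrial, and Dnajb12 and Dnajb14 sit in the membrane of the endoplasmic reticulum.

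The RNA came from midbrain dissected at 180 days of age from mice on a C57BL/6J background, in 9 bulk RNA-seq libraries. DOT1L is the enzyme that methylates lysine 79 of histone H3, and the study asked what its reduction does to gene expression in dopamine neurons of mice. The control genotype Dot1l(+/+) had 0 floxed alleles of Dot1l, Dot1l(fl/+) had 1 and Dot1l(fl/fl) had 2, with 3 libraries each and 3 mice pooled in each library. These are called controls, heterozygotes and homozygotes below. All 9 libraries, controls included, carried Pitx3-Cre/+ and the Rosa lox-stop-lox Yfp reporter. The Cre stands in the Pitx3 locus and acts in post-mitotic dopamine neurons, so Dot1l was deleted in a small share of the dissected cells while all cells gave RNA. In such bulk tissue, fewer cells of a type and less RNA per cell cannot be told apart. The description of the whole series speaks of sorted embryonic cells, while the label of each library gives dissected midbrain at 180 days, and the labels were followed. A replicate is 1 pool of mice, so p-values measure the spread between pools. The 3 comparisons below use the same 9 libraries, and each genotype enters 2 of them.

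Heat shock proteins keep other proteins folded. HSP70 binds exposed hydrophobic stretches and releases them in a cycle of ATP hydrolysis. J-proteins bring it clients and start the hydrolysis, and HSP110 proteins exchange its nucleotide. HSP90 finishes the folding of kinases and receptors, and small heat shock proteins hold unfolded clients without ATP. Some members are made at all times, such as Hspa8 and Hsp90ab1, and others, such as Hspa1a, Hspa1b and Dnajb1, are strongly induced when heat shock factor 1 (HSF1) binds heat shock elements in their promoters. Post-mitotic neurons rely on these proteins because they cannot dilute misfolded protein by dividing, and J-proteins such as Dnajc5, Dnajc6 and Dnajc13 serve synaptic vesicles and endosomes.

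Upstream sequence was read for the members from the RefSeq table of windows around gene starts (GRCm38.p6), to show the pair of stress-inducible HSP70 copies and the J-protein gene with an unadjusted p under 0.05 between the floxed genotypes. Each line gives the 250 bases before a listed start in the direction of the gene. Capitals mark a core of the heat shock element, GAANNTTC or TTCNNGAA, each of which is its own reverse complement and so reads alike on both strands.
Hspa1a (chr17:34972157-34972406, minus strand): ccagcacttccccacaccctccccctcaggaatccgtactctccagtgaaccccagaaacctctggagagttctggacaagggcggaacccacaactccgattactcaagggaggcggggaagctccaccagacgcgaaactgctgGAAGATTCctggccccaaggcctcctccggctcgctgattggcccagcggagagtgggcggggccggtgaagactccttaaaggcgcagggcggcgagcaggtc
Hspa1b (chr17:34959239-34959488, minus strand): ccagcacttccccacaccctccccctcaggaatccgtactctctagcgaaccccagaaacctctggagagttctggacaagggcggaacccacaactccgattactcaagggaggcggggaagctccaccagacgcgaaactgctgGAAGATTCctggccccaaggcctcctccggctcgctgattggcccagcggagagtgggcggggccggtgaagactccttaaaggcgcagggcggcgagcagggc
Dnajb4 (chr3:152193846-152194095, minus strand): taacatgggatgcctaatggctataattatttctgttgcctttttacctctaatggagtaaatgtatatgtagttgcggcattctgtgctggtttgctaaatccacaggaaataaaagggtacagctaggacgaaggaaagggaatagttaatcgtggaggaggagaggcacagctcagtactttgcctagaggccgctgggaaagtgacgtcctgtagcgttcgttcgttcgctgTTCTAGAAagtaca
The Hspa1a and Hspa1b sequences were alike at 247 of 250 positions (98.8%), with the core 104 bases before the start in both. In Dnajb4 the core lay 14 bases before a start that is inside the annotated gene, and the other Dnajb4 window, near the 5′ end of the gene, held 0 cores. Of 32851 windows of 300 bases in the RefSeq table (250 bases before and 50 after a start), 15.1% held such a core, beside 15 of the members' 66 windows (22.7%). These 66 windows belonged to 50 members, of which 13 had a core, beside 4587 of the 27025 genes in the whole table. Each window of Hsph1 held 3 cores and each of Dnajb6 held 2. A run of 3 alternating triplets, also 2 bases apart, was in 4 of the members' windows (6.06%), beside 0.603% of all windows. These 4 were the windows of Hsph1 and Dnajb6, while the windows of Dnajb1 held 0 cores. Hspb1 held cores 117 and 97 bases before its start. Cores lay 90 and 52 bases before 1 start of Dnaja4, 124 before 1 start of Dnaja1 and 120 before 1 start of Hspb6, while the other windows of these 3 genes held 0. The 13 members without an entry were Dnajc2, Dnajc5, Dnajc5b, Dnajc11, Dnajc12, Dnajc18, Dnajc22, Dnajc30, Hsp90aa1, Hsp90ab1, Hspa8, Hspa13 and Hspb2. A match of letters is a description and not a binding site.

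The members were abundant in this tissue. They took 0.704% to 0.726% of all counts in a library, with library totals of 16422135 to 28403218 counts. To compare genes with each other, counts were divided by the length of a gene's joined exons and put on the transcripts-per-million scale (TPM). On this scale the 63 members summed to 6356 ± 120 TPM in the controls, 6413 ± 108 in the heterozygotes and 6319 ± 31.2 in the homozygotes (mean ± SD, n = 3 libraries each), and the ranges of the genotypes overlapped. HSP90 gave 38.7% of the members' summed TPM and Dnajc genes 24.4%. The share was 10.5% for HSP110, 9.27% for HSP70, 7.97% for Dnaja, 6.15% for Dnajb, 2.08% for the 3 genes with only the symbol, and 0.852% for small heat shock proteins.

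Constitutive genes led HSP90 and HSP70. Hsp90ab1, the constitutive HSP90, stood at 2206 TPM over all libraries, at the 99.9th percentile of the genes tested. Its inducible partner Hsp90aa1 stood at 257.7 TPM. Hspa8, the constitutive HSC70, led HSP70 with 305.9 TPM, followed by the divergent Hspa12a with 149.2 and Hspa2 with 61.2. Pseudogene copies held 55.06% of the library-scaled counts summed over Hsp90aa1 and its copies, and 28.85% of those for Hspa8. Reads of these 2 genes that were counted at copies are not in their levels. Hspa1a and Hspa1b had 9.57 and 9.40 TPM. Within HSP110 the order was Hspa4 (279.1 TPM), Hsph1 (231.1) and Hspa4l (159.0). This order depends on their joined exon lengths of 5528, 7266 and 11792 bases, as Hspa4l had the most counts of the 3 before division. The leading J-proteins were Dnajc6, the auxilin that uncoats clathrin vesicles, with 300.3 TPM, Dnaja2, an HSP70 co-chaperone, with 297.2, and Dnajc5, the cysteine string protein of synaptic vesicles, with 273.1. Among Dnajb genes the neuron-enriched Dnajb2 led with 112.8 TPM, before Dnajb1 with 71.5 and Dnajb5 with 54.6. Small heat shock proteins were low, with Hspb8 at 34.8 TPM, Hspb6 at 8.84 and Hspb1 at 7.83.

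**Figure D1:**
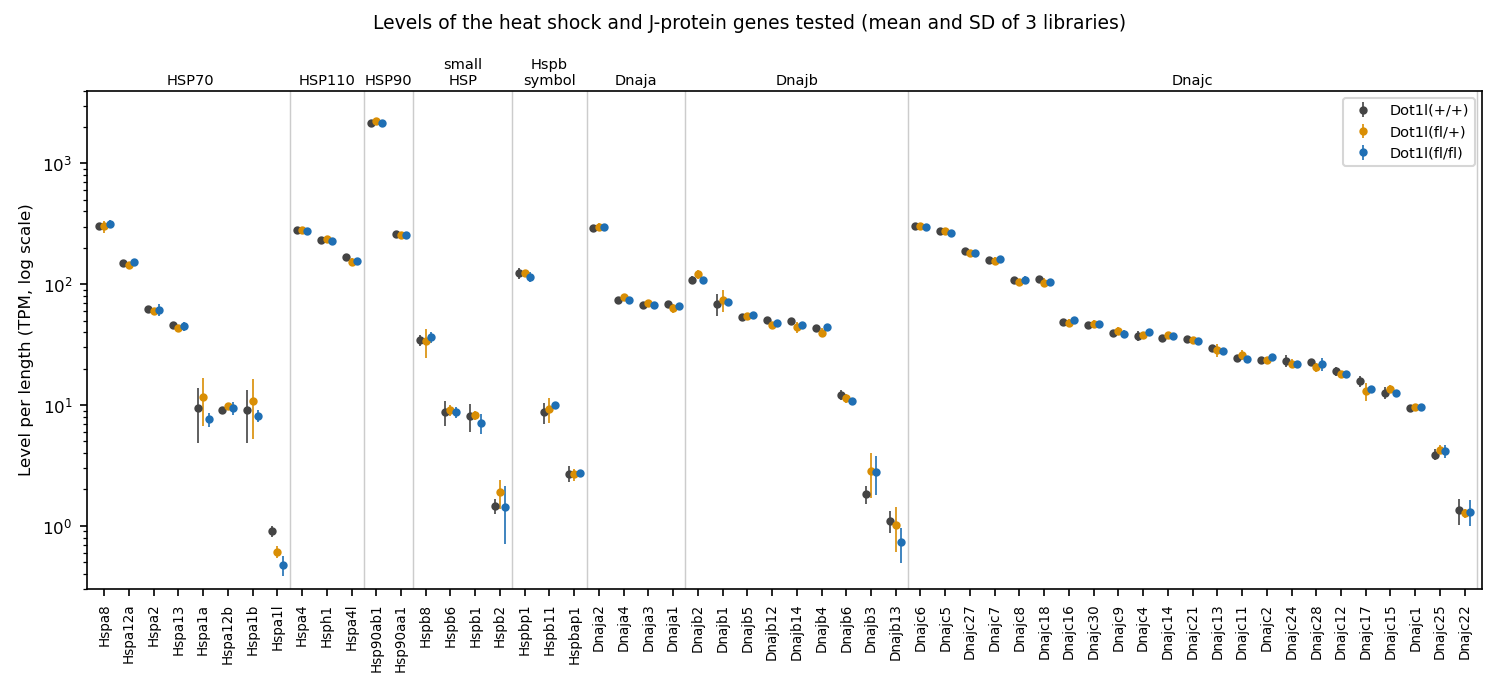
Level of each of the 56 tested members in TPM (log axis), grouped by family, with points for the mean of each genotype and bars for the SD (n = 3 libraries). Hsp90ab1 stands above all others at 2206 TPM, the bars of the genotypes lie close together for most members, and Hspa1a, Hspa1b and the lowest members have the longest bars.

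Differences between genotypes were tested for all genes in 1 edgeR quasi-likelihood fit of the 9 libraries, on counts. Of the 63 members 56 passed the filter on low counts. The other 7, Dnajb7, Dnajb8, Dnajc5b, Dnajc5g, Hspb3, Hspb7 and Hspb9, were too low to test, and Dnajb8 and Dnajc5g had 0 counts in every library. Gene positions are from GENCODE M21 (GRCm38). Levels of single genes are given below on the counts-per-million scale of each library (CPM), which compares libraries and not genes. Of the 17671 genes tested, 0 passed an adjusted p of 0.05 in any of the 3 comparisons, so 0 members did (background 0.00% in each). The lowest adjusted p over all genes was 0.412 for the heterozygotes against the controls, 0.0906 for the homozygotes against the controls and 0.350 for the homozygotes against the heterozygotes. With the replicate number as a block edgeR gave 0, 3 and 3 genes at an adjusted p under 0.05, with 0 members among them. DESeq2 on the same counts, without a block, gave 7, 4 and 12, also with 0 members. At an unadjusted p under 0.05 edgeR without the block gave 1483, 694 and 1145 genes and DESeq2 1207, 450 and 889. The rest of the account therefore rests on unadjusted p-values, which pick some genes by chance, and on levels.

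Dot1l itself was measured first. Its level was 85.2, 80.2 and 85.1 CPM in the controls, 84.2, 60.6 and 75.6 in the heterozygotes and 82.1, 73.9 and 82.9 in the homozygotes. The genotypes overlapped, with a log2 fold change of -0.19 ± 0.094 (SE, edgeR adjusted p = 0.620) in the heterozygotes and -0.069 ± 0.094 (adjusted p = 0.999) in the homozygotes. With the replicate number as a block the first was -0.19 at an unadjusted p of 0.0163 (adjusted p = 0.479, edgeR). The deletion removes exon 5 in dopamine neurons, and these counts cover the whole gene in all cells. Of 11 dopamine neuron markers, 0 passed the adjusted threshold in any comparison (lowest adjusted p 0.541 in the heterozygotes and 0.0906 in the homozygotes, edgeR). All 11 had negative log2 fold changes in both floxed genotypes, 4 at an unadjusted p under 0.05 in the heterozygotes (background 4.09% lower) and 8 in the homozygotes (background 1.72%). Their summed level was 749.5 to 839.4 CPM in the controls, 605.1 to 753.0 in the heterozygotes and 592.0 to 623.0 in the homozygotes, and none of the 11 was at 0. The part of these markers in the values below was not tested.

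In the heterozygotes against the controls, 37 of the 56 members were higher and 19 lower (background 48.9% of all genes above 0). Their median log2 fold change was 0.031, beside -0.0034 over all genes tested. At an unadjusted p under 0.05, 1 member was higher and 1 lower, where 8.39% of all genes passed (4.30% higher and 4.09% lower). In the homozygotes against the controls, 36 members were higher and 20 lower (background 50.4% above 0), with a median of 0.032 beside 0.0009. No member was higher and 1 was lower at an unadjusted p under 0.05 (background 3.93%, of which 2.21% higher and 1.72% lower), and DESeq2 gave 0 at the same limit. In the homozygotes against the heterozygotes, 27 were higher and 29 lower (background 50.5% above 0), with a median of -0.0035, and 1 member was higher and 0 lower at that limit (background 6.48%, of which 3.60% higher and 2.87% lower). With the replicate number as a block the members at the unadjusted limit were 3, 1 and 2 in the comparisons in this order, or 5.36%, 1.79% and 3.57%, beside 9.34%, 4.43% and 7.12% of all genes with the same block. The members' counts by p were near or below the background share in all 3 comparisons. For the 41 members with a mean of 10 CPM or more, the log2 fold changes lay between -0.13 and 0.18 in the heterozygotes and between -0.14 and 0.16 in the homozygotes. The 95% interval of such a member reached a median of 0.13 to either side.

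**Figure D2:**
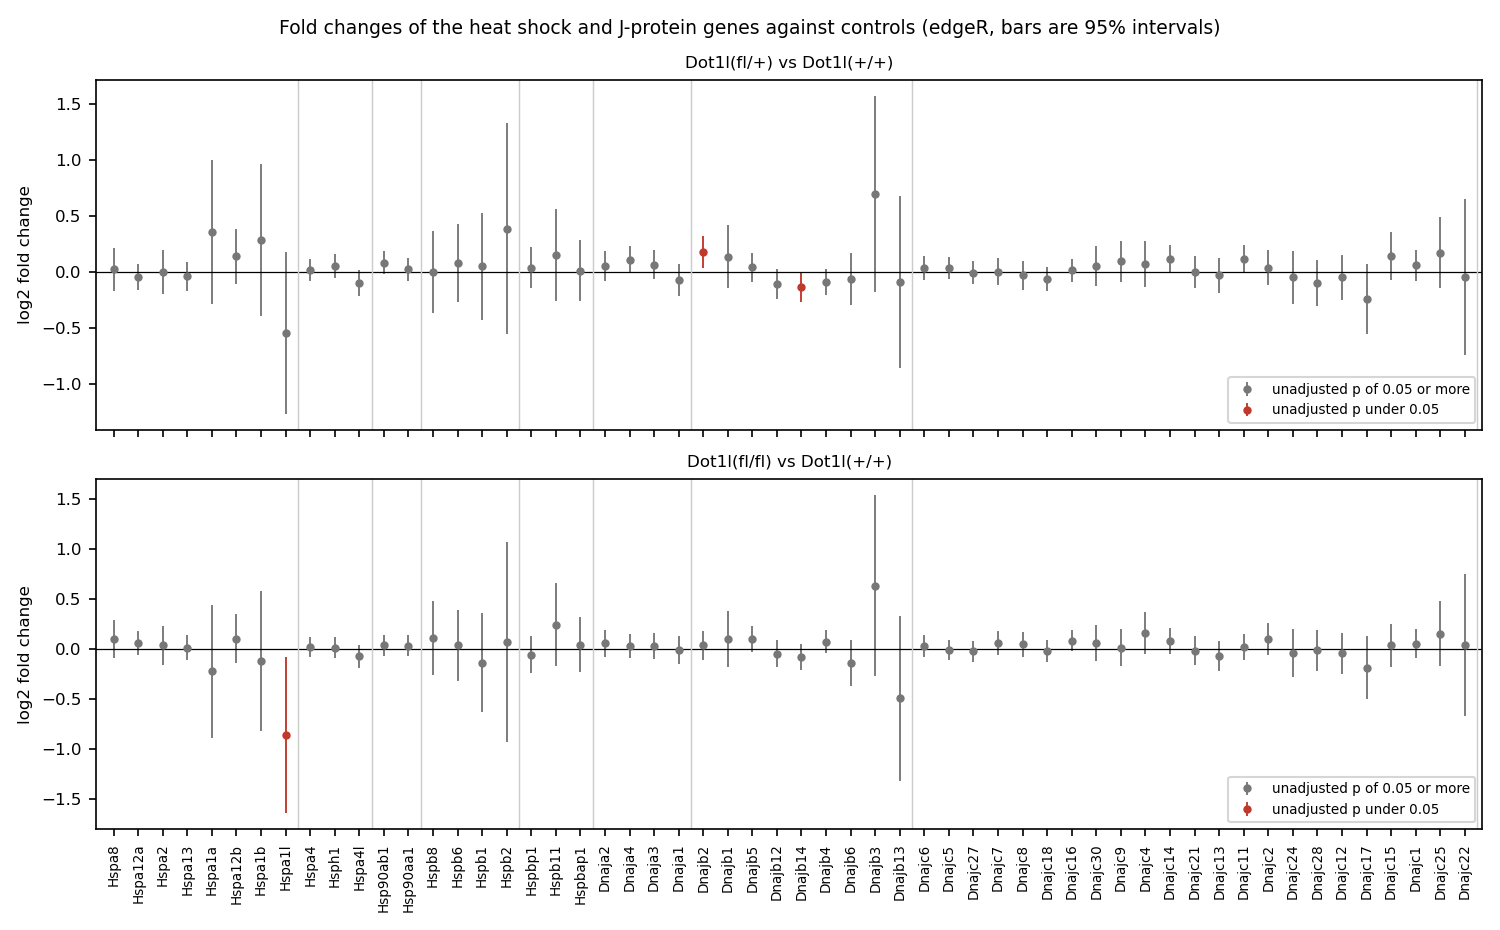
Log2 fold change of each tested member with its 95% interval (edgeR) in the heterozygotes (upper panel) and the homozygotes (lower panel) against the controls, grouped by family, where the horizontal line marks 0 and red marks an unadjusted p under 0.05. The red members are Dnajb2 and Dnajb14 above and Hspa1l below, and low members such as Hspa1a, Hspa1b, Hspa1l and Dnajb3 have the widest intervals.

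Within HSP70 the constitutive Hspa8 was measured at 321.8, 312.2 and 314.4 CPM in the controls, 272.3, 358.3 and 334.4 in the heterozygotes and 367.9, 339.7 and 307.9 in the homozygotes. Both floxed genotypes spread wider than the controls and enclosed them, and the lowest library was Dot1l(fl/+) replicate 1. The log2 fold change was 0.025 ± 0.088 (SE) in the heterozygotes and 0.099 ± 0.088 in the homozygotes, neither at an unadjusted p under 0.05. Hspa2, an HSP70 of testis that neurons also make, lay between 34.7 and 44.8 CPM in all libraries with overlapping genotypes.

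The stress-inducible genes differed more between libraries than between genotypes. Hspa1a was measured at 10.4, 5.58 and 4.32 CPM in the controls, 12.6, 6.89 and 6.26 in the heterozygotes and 6.198, 6.13 and 4.67 in the homozygotes. Replicate 1 of the controls and of the heterozygotes stood apart from the rest. All homozygous libraries lay below all heterozygous libraries, the nearest at 6.198 beside 6.258 CPM. The log2 fold change of Hspa1a was 0.36 ± 0.30 (SE, 95% interval -0.28 to 1.00) in the heterozygotes and -0.23 ± 0.31 in the homozygotes against the controls. Between the homozygotes and the heterozygotes it was -0.58 ± 0.30 (interval -1.24 to 0.069, unadjusted p = 0.0757, edgeR). These values moved with single libraries. With 1 library left out the heterozygotes against the controls ran from -0.025, without heterozygous replicate 1 (unadjusted p = 0.932), to 0.79, without control replicate 1 (unadjusted p = 0.0129, adjusted p = 0.694), and the homozygotes against the controls from -0.47 to 0.21. The homozygotes against the heterozygotes ran from -0.76 to -0.20, the weakest without heterozygous replicate 1 (unadjusted p = 0.489). Several alternatives brought Hspa1a past the unadjusted limit. With the replicate number as a block its unadjusted p was 0.0470 for the heterozygotes against the controls (adjusted p = 0.529) and 0.00647 for the homozygotes against the heterozygotes (log2 fold change -0.55, adjusted p = 0.60, edgeR). The difference between the floxed genotypes also had an unadjusted p of 0.0370 with those genotypes fitted alone, 0.0309 without control replicate 1, 0.0402 when heterozygous replicate 2 was left out and 0.0309 when heterozygous replicate 3 was. With no filter on low counts its adjusted p was 0.0180.

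Hspa1b, the neighbouring copy of the same protein, was measured at 9.46, 4.25 and 4.92 CPM in the controls, 11.9, 5.16 and 5.61 in the heterozygotes and 5.12, 5.73 and 6.25 in the homozygotes. The same pair of libraries was highest, and the genotypes overlapped. Dnajb1, the inducible J-protein that works with HSP70 in disaggregation, had 65.6, 48.0 and 47.0 CPM in the controls, 70.5, 50.1 and 56.0 in the heterozygotes and 59.9, 57.3 and 54.8 in the homozygotes. It too was highest in replicate 1 of the controls and of the heterozygotes. With control replicate 1 left out, the log2 fold change of Dnajb1 against the controls went from 0.14 to 0.31 in the heterozygotes (unadjusted p = 0.0186, adjusted p = 0.694, edgeR) and from 0.10 to 0.27 in the homozygotes (unadjusted p = 0.0344, adjusted p = 1.00). With both of those libraries left out, an alternative chosen after the values were seen, it was 0.27 in the homozygotes at an unadjusted p of 0.00332 (adjusted p = 1.0, edgeR), and Hspa1a was 0.42 in the heterozygotes at an unadjusted p of 0.0485 (adjusted p = 0.483). The variation between libraries beyond counting (biological coefficient of variation) was 25.2% for Hspa1a, 26.4% for Hspa1b and 11.4% for Dnajb1, beside 8.81% over all genes. Immediate early genes, which respond to neuronal activity, summed highest in Dot1l(fl/+) replicate 2 (372.2 CPM) and lowest in Dot1l(fl/+) replicate 3 (163.3). All 12 of them had log2 fold changes above 0 in the heterozygotes (background 48.9%), 0 at an unadjusted p under 0.05. In the homozygotes 4 were above 0 and 8 below (background 50.4% above 0, median -0.071), and 1 was higher at that limit (background 2.21%).

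**Figure D3:**
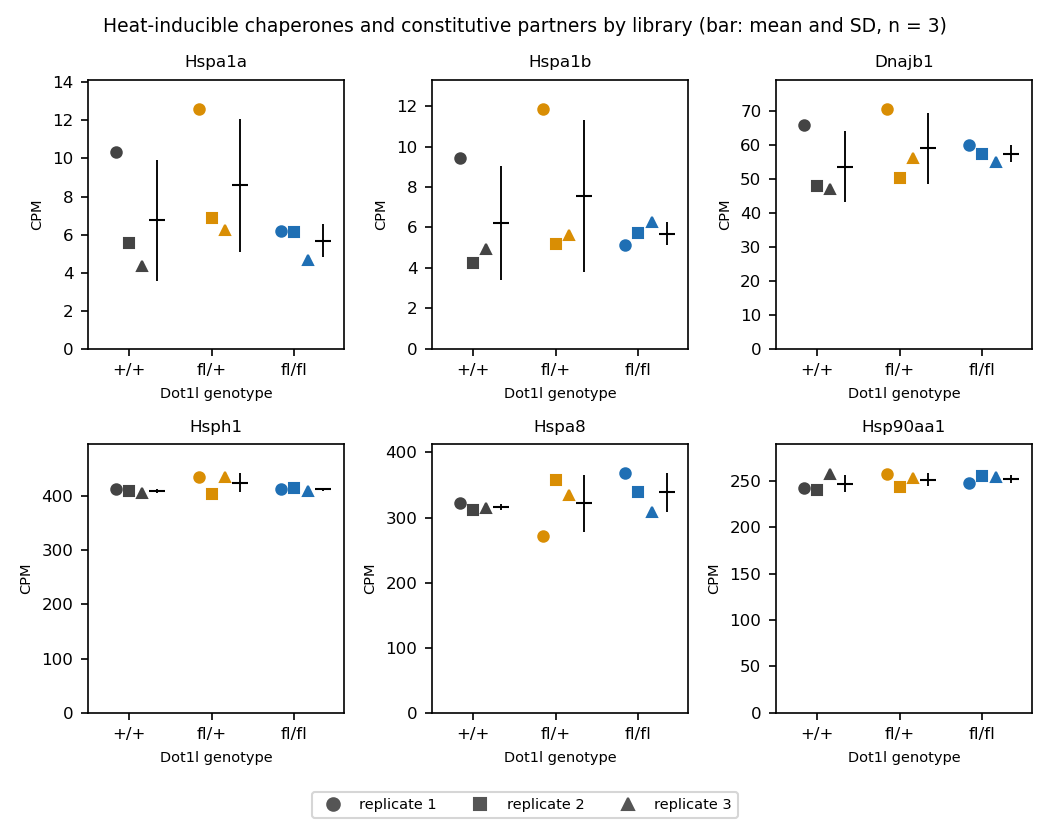
Levels in CPM of the inducible Hspa1a, Hspa1b and Dnajb1 and of Hsph1, Hspa8 and Hsp90aa1 in each of the 9 libraries, with symbols for the replicate number and a bar at the mean ± SD of each genotype (n = 3). Replicate 1 is the highest of the controls and of the heterozygotes for Hspa1a, Hspa1b and Dnajb1, while for Hspa8 it is the lowest of the heterozygotes.

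Hspa1l, a testis-type HSP70 next to Hspa1a (ENSMUSG00000007033, chr17:34972703-34979285, plus strand), was the member lower in the homozygotes at an unadjusted p under 0.05. It was near the lower end of detection, with 0.473, 0.558 and 0.601 CPM in the controls, 0.353, 0.353 and 0.420 in the heterozygotes and 0.360, 0.277 and 0.243 in the homozygotes, from 4 to 16 reads per library. Every floxed library lay below every control library. The log2 fold change was -0.86 ± 0.36 (SE, interval -1.64 to -0.085, unadjusted p = 0.0323, adjusted p = 0.999, edgeR), and under DESeq2 the unadjusted p was 0.144. Leaving out replicate 2 or 3 of the controls or of the homozygotes gave an unadjusted p of 0.0651 to 0.0900. Gm10501 on the opposite strand overlaps 71.9% of the length of Hspa1l, and the strand setting of the counting is not given in the sources used here, so reads of both cannot be told apart.

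Of the HSP110 genes, which recharge HSP70 with ATP, Hspa4l was measured at 488.1, 485.4 and 471.5 CPM in the controls, 472.5, 455.3 and 420.9 in the heterozygotes and 455.2, 446.0 and 471.4 in the homozygotes. All homozygous libraries were below all controls, the nearest by less than 1 CPM. Its log2 fold change was -0.10 ± 0.054 in the heterozygotes (unadjusted p = 0.0875) and -0.074 in the homozygotes. With gene length and GC content as an offset the first was 0.013 (unadjusted p = 0.767), and without heterozygous replicate 1 it was -0.14 (unadjusted p = 0.0345). Hspa4 (373.4 to 388.5 CPM) and Hsph1 (403.5 to 434.7) were among the steadiest members, with overlapping genotypes.

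Hsp90ab1 was measured at 1603, 1559 and 1606 CPM in the controls, 1650, 1698 and 1715 in the heterozygotes and 1663, 1650 and 1573 in the homozygotes. All heterozygous libraries lay above all controls, while the homozygotes overlapped both. The log2 fold change was 0.087 ± 0.049 in the heterozygotes, with an unadjusted p of 0.103 (adjusted p = 0.663, edgeR). Hsp90aa1 lay between 240.2 and 257.7 CPM, and its genotypes overlapped.

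The 4 small heat shock protein genes that could be tested, Hspb1, Hspb2, Hspb6 and Hspb8, had 0 members at an unadjusted p under 0.05 in any comparison. Hspb8, which hands clients to autophagy with BAG3, was measured at 16.2, 14.7 and 18.1 CPM in the controls, 13.1, 22.2 and 13.9 in the heterozygotes and 15.7, 19.4 and 17.8 in the homozygotes. Dot1l(fl/+) replicate 2 was the highest of all 9 libraries and its fellow replicates the lowest, and without it the log2 fold change in the heterozygotes turned to -0.28 (unadjusted p = 0.0352) and that of the homozygotes against the heterozygotes went from 0.10 to 0.39 (unadjusted p = 0.00617). Hspb1, the HSP25 of muscle and glia, lay between 1.52 and 2.66 CPM, and Hspb6 between 3.80 and 5.96.

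Of the 9 Dnajb genes tested, 2 passed the unadjusted limit in the heterozygotes, 0 in the homozygotes against the controls and 1 in the homozygotes against the heterozygotes (background 8.39%, 3.93% and 6.48%). Dnajb2 (ENSMUSG00000026203, chr1:75236406-75245692, plus strand) encodes a J-protein that helps to route misfolded clients to the proteasome in neurons. It was measured at 116.6, 117.0 and 103.7 CPM in the controls, 128.5, 118.7 and 135.2 in the heterozygotes and 110.9, 124.3 and 110.6 in the homozygotes. Every heterozygous library was above every control, and the homozygotes overlapped both. Its log2 fold change in the heterozygotes was 0.18 ± 0.067 (SE, interval 0.036 to 0.33, unadjusted p = 0.0182, adjusted p = 0.541, edgeR), or 13.4%. In the homozygotes against the heterozygotes it was -0.14 ± 0.068 (unadjusted p = 0.0517), and 6 of the 20 alternatives brought it past the unadjusted limit, among them -0.19 (unadjusted p = 0.0120) without heterozygous replicate 2 and -0.21 (unadjusted p = 0.0148) without homozygous replicate 2. For the heterozygotes against the controls, the value without control replicate 3 was 0.13 at an unadjusted p of 0.0932, and without Dot1l(fl/+) replicate 3 it was 0.14 at 0.0794.

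Dnajb14 (ENSMUSG00000074212, chr3:137867675-137916557, plus strand) encodes a J-protein in the membrane of the endoplasmic reticulum. It was measured at 186.3, 184.3 and 198.0 CPM in the controls, 178.4, 157.8 and 181.9 in the heterozygotes and 185.9, 171.1 and 181.5 in the homozygotes. All heterozygous libraries were below all controls, and the homozygotes overlapped both. The log2 fold change in the heterozygotes was -0.13 ± 0.060 (SE, interval -0.26 to -0.0052, unadjusted p = 0.0425, adjusted p = 0.575, edgeR). It was past the unadjusted limit by little: leaving out any control, heterozygous replicate 2 or homozygous replicate 1 or 3 gave an unadjusted p of 0.0528 to 0.177, with log2 fold changes of -0.15 to -0.074. With gene length and GC content as an offset it was -0.053.

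Dnajb4 (ENSMUSG00000028035, chr3:152178511-152210302, minus strand), an HSP40 close in sequence to Dnajb1, was measured at 90.6, 93.3 and 92.0 CPM in the controls, 92.4, 83.0 and 84.4 in the heterozygotes and 99.4, 96.8 and 93.5 in the homozygotes. All homozygous libraries were above all others, the nearest by less than 1 CPM, and the heterozygotes overlapped the controls. Between the homozygotes and the heterozygotes the log2 fold change was 0.16 ± 0.053 (SE, interval 0.044 to 0.27, unadjusted p = 0.0103, adjusted p = 0.712, edgeR). Without Dot1l(fl/fl) replicate 1 the unadjusted p was 0.0533, and with gene length and GC content as an offset the value was 0.095 (unadjusted p = 0.0660). As a description, the 11 tested members with a core had median log2 fold changes of 0.052, -0.014 and -0.045 in the 3 comparisons in the order given, and the 33 with a window and no core had 0.021, 0.036 and -0.0013.

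**Figure D4:**
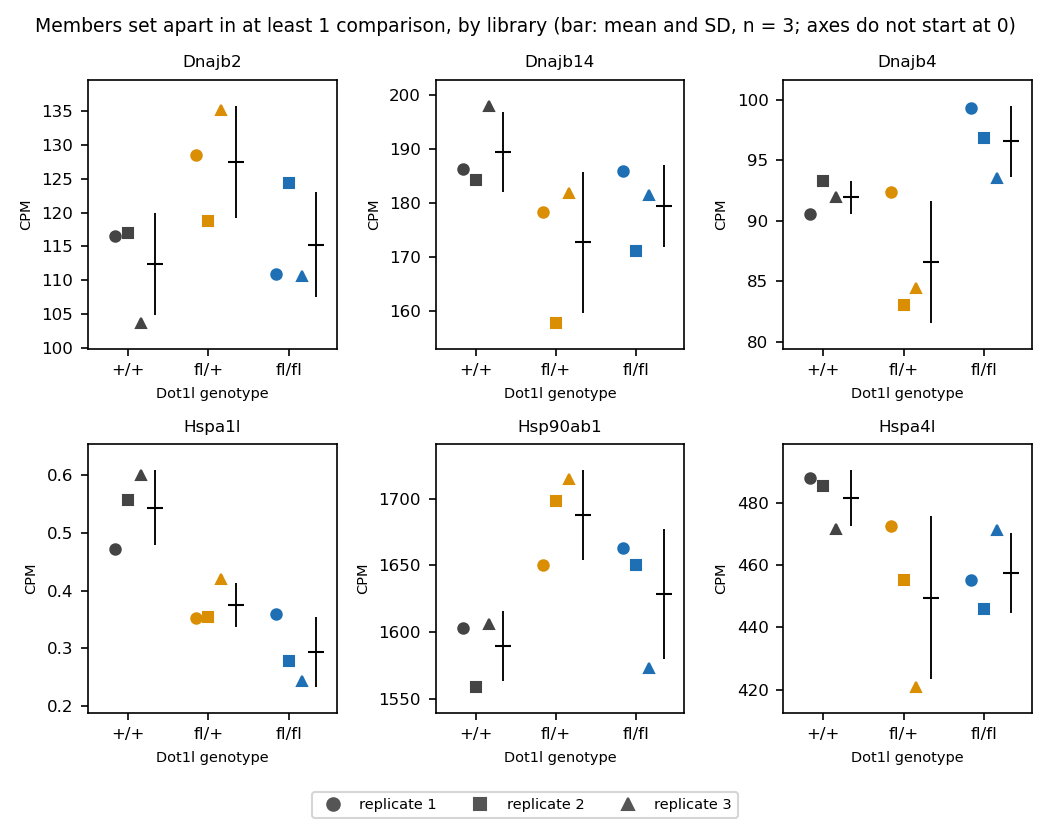
Levels in CPM of Dnajb2, Dnajb14, Dnajb4, Hspa1l, Hsp90ab1 and Hspa4l in each library, with symbols for the replicate number and a bar at the mean ± SD of each genotype (n = 3), on vertical axes that do not start at 0. Dnajb2 and Hsp90ab1 have their highest mean in the heterozygotes, Dnajb14, Hspa1l and Hspa4l in the controls and Dnajb4 in the homozygotes.

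Counted over all members, 5 lay in all heterozygous libraries above all controls (Dnajb2, Dnaja3, Dnaja4, Dnajc14 and Hsp90ab1), where 6.84% of all genes did so. Dnajb14 and Hspa1l lay below (background 6.47%). In the homozygotes, Dnajb4, Dnajc4 and Dnajc16 lay above all controls (background 5.03%) and Hspa1l and Hspa4l below (background 5.25%). Against the heterozygotes, all homozygous libraries were above for Dnajb4, Dnajc4 and Dnajc16 (background 5.98%) and below for Hspa1a and Dnajc5 (background 5.14%). Dnajc4, Dnajc14 and Dnajc16 are named here for this separation, after their values were seen.

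Among Dnaja genes, the partners of HSP70 in protein import and refolding, Dnaja4 was measured at 63.7, 64.8 and 66.4 CPM in the controls and 68.8, 74.5 and 67.3 in the heterozygotes, with 68.2, 66.7 and 64.4 in the homozygotes. Its lowest heterozygous library exceeded the highest control by less than 1 CPM, at an unadjusted p of 0.0618 (log2 fold change 0.11). Without heterozygous replicate 3 the value was 0.14 (unadjusted p = 0.0371, adjusted p = 0.849, edgeR). Dnaja2 lay between 202.2 and 242.9 CPM and Dnaja1 between 119.9 and 148.1, and in both the heterozygotes held the lowest and the highest library. Without heterozygous replicate 2 the log2 fold change of Dnaja1 in the heterozygotes was -0.14 (unadjusted p = 0.0407, adjusted p = 0.471, edgeR).

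The 23 tested Dnajc genes, the most diverse J-proteins, had 0 members at an unadjusted p under 0.05 in any comparison, with a median log2 fold change of 0.016 in the heterozygotes and 0.026 in the homozygotes. Dnajc5 lay between 453.6 and 481.3 CPM and Dnajc6 between 412.5 and 461.5. Dnajc7, which carries clients between HSP70 and HSP90, lay between 175.8 and 198.8, and Dnajc13, an endosomal protein linked to inherited Parkinson disease, between 78.3 and 94.9. Dnajc12, a co-chaperone of aromatic amino acid hydroxylases such as tyrosine hydroxylase, was measured at 20.1, 22.8 and 19.4 CPM in the controls, 19.8, 22.1 and 18.4 in the heterozygotes and 19.3, 21.2 and 19.9 in the homozygotes. Its genotypes overlapped throughout.

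Several members share sequence with other genes, and reads of the shared parts may have been split or dropped. Of the stretches of 50 bases in the exons, 60.3% of Hspa1a and 62.3% of Hspa1b also occurred in another gene. The shares were 38.6% for Hspa8, 47.5% for Hsp90aa1 and 48.8% for Hspb1. The pseudogene Gm15459, which matches Hspa8, had 120.4 to 141.5 CPM, and Gm12346, which matches Hsp90aa1, had 243.5 to 271.6 CPM. The pseudogene Hsp25-ps1, which matches Hspb1, had 0.789 to 2.68 CPM, and reads of the shared stretches of both cannot be told apart. When Hspa1a and Hspa1b were added together, the sum was 19.8, 9.83 and 9.24 CPM in the controls, 24.5, 12.1 and 11.9 in the heterozygotes and 11.3, 11.9 and 10.9 in the homozygotes. The same pair of libraries stood out, and the log2 fold change was 0.33 ± 0.29 in the heterozygotes (unadjusted p = 0.283). Hspa8 with its copies gave 0.069 ± 0.073 in the heterozygotes and 0.11 ± 0.073 in the homozygotes, and Hsp90aa1 with its copies -0.0044 and -0.00071, and adding copies brought no further member past the limit.

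**Figure D5:**
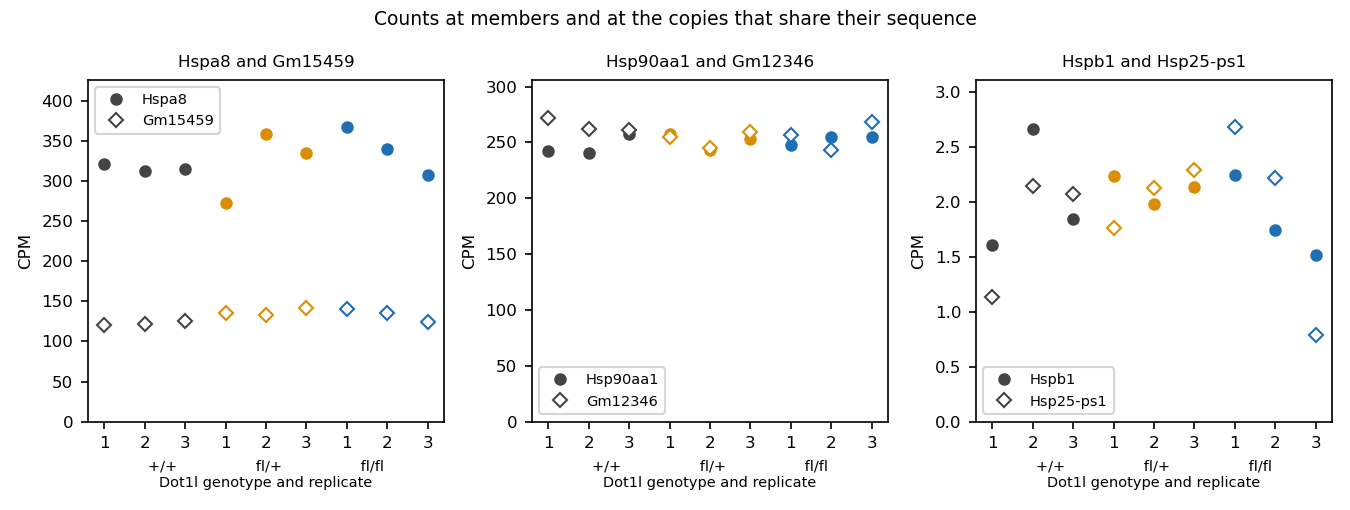
Levels in CPM of Hspa8, Hsp90aa1 and Hspb1 (filled points) and of the pseudogene that shares most of each gene's repeated sequence (open diamonds) in the 9 libraries, coloured by genotype. Gm12346 and Hsp25-ps1 are counted about as highly as the genes they match, Gm15459 is below Hspa8 in every library, and the genotypes overlap for all 3 genes.

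Partners of these chaperones were taken from a list of 52 genes (co-chaperones, HSF genes, the CCT chaperonin and prefoldin), of which 51 could be tested. The list was chosen with earlier results of these data known. In the heterozygotes 39 were higher and 12 lower (background 48.9% above 0). At an unadjusted p under 0.05, 7 were higher and 0 lower, or 13.7% beside the 4.30% of all genes. None passed the adjusted threshold, and 1 did with no filter on low counts. The 7, named for passing this limit, were Fkbp4 and Stip1 (HSP90 co-chaperones), Ahsa1 (the activator of HSP90 ATPase), Cct4 and Cct5 (chaperonin subunits), Pfdn5 (prefoldin) and Cryab (a small heat shock protein with a crystallin symbol). Fkbp4 was measured at 147.2, 146.6 and 144.3 CPM in the controls, 159.8, 171.8 and 177.5 in the heterozygotes and 142.8, 158.4 and 144.0 in the homozygotes. All heterozygous libraries were above all others, and the log2 fold change in the heterozygotes was 0.22 ± 0.055 (SE, unadjusted p = 0.00164, adjusted p = 0.541, edgeR). The other 6 lay between 0.13 and 0.19. Over the 20 alternatives the count of partners at this limit ran from 2 to 12, with 2 (Fkbp4 and Cryab, both higher) when control replicate 3 was left out, 3 when Dot1l(fl/+) replicate 3 was, and 12 when Dot1l(fl/+) replicate 1 was. The shares of partners higher at this limit were then 3.92%, 5.88% and 23.5%, beside 3.05%, 2.90% and 6.28% of all genes under the same alternatives. Markers of oligodendrocytes, which are rich in Cryab, had 3 of 8 genes higher in the heterozygotes at an unadjusted p under 0.05, beside 4.30% of all genes, with sums of 10310 to 11370 CPM in the controls and 10480 to 11830 in the heterozygotes, and their part in the values of Cryab was not tested.

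In the homozygotes against the controls 34 of the 51 partners were above 0, or 66.7% beside 50.4% of all genes, and 0 passed an unadjusted p of 0.05 (background 3.93%). Against the heterozygotes, Fkbp4 (-0.19) and Cryab (-0.16) were lower at that limit, or 3.92% of the partners beside 2.87% of all genes. In the same comparison 7 of 8 oligodendrocyte markers were lower, 4 of them at the unadjusted limit (background 2.87%), with sums of 10540 to 11030 CPM in the homozygotes, and their part in the value of Cryab was not tested. Hsf1, the main factor of the heat shock response, had means of 33.7, 35.5 and 35.5 CPM in the 3 genotypes and a log2 fold change of 0.075 in the heterozygotes and 0.078 in the homozygotes. All 8 CCT subunits and 5 of the 6 prefoldin subunits were higher in the heterozygotes (background 48.9% above 0). Of these, 2 CCT subunits and 1 prefoldin subunit passed the unadjusted limit (background 4.30% higher). In the homozygotes against the controls 7 of the 8 and 5 of the 6 were higher (background 50.4% above 0), 0 of them at that limit (background 3.93%). A list of 22 targets of the heat shock response, 10 of which are members, had 5 higher at that limit in the heterozygotes (background 4.30%), all non-members (Serpinh1 beside Fkbp4, Stip1, Ahsa1 and Cryab). In the homozygotes 1 target was lower against the controls (background 1.72%), the ubiquitin gene Ubb (-0.39, unadjusted p = 0.0164, edgeR). Against the heterozygotes 8 of the 22 targets were above 0 and 14 below (background 50.5% above 0). At the unadjusted limit 2 of them were lower, the same Fkbp4 and Cryab, or 9.09% beside 2.87% of all genes. The 8 organelle chaperones left out of the members had 0 genes at this limit in any comparison.

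Markers of the other cell types in the tissue were all detected. In the homozygotes against the controls, 3 of 8 microglial markers were higher at an unadjusted p under 0.05 (background 2.21%), with sums of 264.2 to 286.6 CPM beside 237.8 to 253.5. Oligodendrocyte, astrocyte, endothelial, mural, ependymal and blood markers had 0 genes at that limit in this comparison. In the heterozygotes, 2 of 7 astrocyte markers were above 0 and 5 below (median log2 fold change -0.032), with 1 of them higher at that limit (background 4.30%). All 5 blood markers were below 0, 1 of them lower at the limit (background 4.09%), and endothelial, mural, ependymal and microglial markers had 0. By sign, 7 of 7 ependymal (median 0.30), 6 of 8 microglial (median 0.13) and 4 of 7 endothelial markers were above 0. Of the 7 mural markers 1 was above 0 and 6 below (median -0.10), where 48.9% of all genes were above 0. In the homozygotes against the heterozygotes, 5 of 11 dopamine neuron markers were lower (background 2.87%) and 1 of 5 blood markers higher (background 3.60%) at that limit, and astrocyte, microglial, endothelial, mural and ependymal markers had 0. The part of these cells in the members' values was not tested.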

How the data were processed

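RNA of dissected midbrain was sequenced as directional libraries, and the authors deposited raw counts per gene for each of the 9 libraries. Per the labels the genome was GRCm38.p4, and the submitters' processing notes name bcl2fastq 2.17, Trimmomatic 0.30 and DESeq2 1.10.1. The aligner, counter and strand setting are not given in the sources used here. Deposited tables of the authors' own comparisons (mean normalized counts, log2 fold changes, standard errors, Wald statistics and p-values) were not used.

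Genotypes were taken from the labels. Of 47729 rows 47310 matched a gene of GENCODE M21, and all 63 members had a row. Genes passing filterByExpr (17671) were fitted with edgeR 4.0.16 (R 4.3.3) as 1 quasi-likelihood model of all 9 libraries with genotype alone, TMM scaling and Benjamini-Hochberg adjustment. Tests were two-sided. CPM use the TMM-scaled library size, and TPM the joined exon length. Names follow a rule: members at an adjusted or unadjusted p under 0.05, the 3 highest of each family by TPM, and genes of known role. The members and lists were chosen with earlier results of these data known. Shared sequence was counted in stretches of 50 bases. Tested on simulated counts of Dot1l(fl/+) against the controls with 200 changed genes, the fit recovered 15.5% at a log2 fold change of 0.3 (17485 genes), 57.5% at 0.5 (17494 genes) and 94.0% at 1.0 (17484 genes) at an adjusted p under 0.05. Library pairs of a genotype differed by more than counting noise, so each library counted as 1 replicate. The study's methods describe matched sets of the 3 genotypes from the same litters, and the labels do not say whether the library number marks the set. Deviations from the genotype mean, over genes, correlated at 0.022 to 0.317 between same-numbered libraries (median 0.143, with those numbered 3 under 0.1) and at -0.267 to 0.108 between others (median -0.112). The reported fit has no block, and blocked values stand beside the results they change. Alternatives were DESeq2 1.42.0 (its size factors and its test), other filters, each genotype pair alone, a replicate block, a length and GC offset, TMM without ribosomal and mitochondrial RNA, counts with those of copies added, and leaving out libraries.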

Additional observations from a re-analysis of the deposited data

How the results depend on the processing

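In Dot1l(fl/+) against the controls, genes at an adjusted p under 0.05 numbered 7 with DESeq2, 251 with no filter on low counts, 1 with this genotype pair fitted alone and 0 to 5 with 1 library left out. Members at an unadjusted p under 0.05 numbered 4 with no filter, 1 with the genotype pair alone, 4 with a length and GC offset, 5 with that offset and the replicate block, and 0 to 6 with 1 library left out. They were 0 without control replicate 3, 4 without control replicate 1 (Dnajb2, Hspa1a, Hspa1b and Dnajb1) or replicate 2 of the heterozygotes, and 6 (10.7%) without replicate 1 of the heterozygotes, where 12.5% of all genes passed. Over the alternatives 5.45% to 12.5% of all genes passed, and the members' share was above that of all genes in 2 of 20. The members' median log2 fold change was 0.052 with the offset, 0.051 with offset and block, and 0.019 to 0.036 with 1 library left out. With the offset, 802 genes were higher and 435 lower at the unadjusted limit, beside 760 and 723. The log2 fold change of Dot1l was -0.18 with no filter, -0.19 with the block, -0.18 with the offset, -0.19 with both, -0.28 without the pair of libraries highest in Hspa1a, and -0.29 to -0.063 with 1 library left out.

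In Dot1l(fl/fl) against the controls, calls numbered 4 with DESeq2, 118 with no filter, 4 with the genotype pair alone, 3 with the block, 3 with offset and block, and 0 to 4 with 1 library left out. Members at the unadjusted limit numbered 0 with DESeq2, with no filter and with at least 10 counts in each library, 2 without the pair of libraries highest in Hspa1a, and 0 to 2 with 1 left out. All genes at this limit made up 2.13% to 5.57%, and the members' share was above theirs in 2 of 20. The members' median ran from 0.0087 to 0.040 and the value of Dot1l from -0.095 to -0.016 with 1 library left out.

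In Dot1l(fl/fl) against Dot1l(fl/+), calls numbered 12 with DESeq2, 164 with no filter (Hspa1a among them, -0.59 at an adjusted p of 0.0180 by edgeR), 3 with the block, 4 with offset and block, and 0 to 12 with 1 library left out. Members at the unadjusted limit numbered 2 with TMM without ribosomal and mitochondrial RNA, 4 with no filter, 2 with at least 10 counts in each library, 2 with the genotype pair alone, 2 with the block, 0 with the offset, and 0 to 5 with 1 left out. All genes made up 4.90% to 9.79%, and the members' share was above theirs in 1 of 20. The members' median was -0.029 with the offset, -0.026 with offset and block and -0.018 to 0.0011 with 1 left out. The value of Dot1l was 0.15 with offset and block, 0.22 without the pair of libraries highest in Hspa1a, and -0.0059 to 0.23 with 1 left out. The cause of these changes was not tested.

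Hspb8 in Dot1l(fl/+) ran from -0.28 to 0.14 with 1 library left out, the lowest without Dot1l(fl/+) replicate 2. Dnajb4 between the floxed genotypes was 0.095 with the offset (unadjusted p = 0.0660), and its unadjusted p was 0.0533 without Dot1l(fl/fl) replicate 1. Of 1913 values of named genes under alternatives, 1843 stayed on the same side of the unadjusted limit and, where not past it, within 1 SD between libraries of the reported value. Of these, 1715 kept their sign and 128, none of them past the limit, did not. The replicate block brought Hspa1a (heterozygotes against controls, and between the floxed genotypes) and Dot1l (-0.19, heterozygotes against controls) past the unadjusted limit and changed no other call of a named gene. The alternatives without the pair of libraries highest in Hspa1a and with summed copies were chosen after seeing the data.

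With 3 pools a genotype, changes under a log2 of about 0.3 were mostly beyond the reach of an adjusted call, and low members such as Hspa1l rest on few reads.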
